A study of Arabidopsis thaliana with 6 samples.

Results

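The genes described here are the root machinery of iron uptake and coumarin secretion in *Arabidopsis thaliana*. They are 10 loci chosen by locus tag out of 26552 loci with usable values: FRO2 (AT1G01580), IRT1 (AT4G19690), FIT (AT2G28160), AHA2 (AT4G30190), PDR9 (AT3G53480), F6'H1 (AT3G13610), S8H (AT3G12900), CYP82C4 (AT4G31940), MYB10 (AT3G12820) and MYB72 (AT1G56160). Messenger RNA was sequenced from whole seedlings of the accession Col-0, roots and shoots together, grown for 6 days in shaken liquid medium under long days. The DMMTA group then spent 6 h with 15 µM DMMTA in the medium; DMMTA is dimethylmonothioarsenate, an organic arsenic species in which sulfur replaces an oxygen. The control group received no DMMTA. There were 3 libraries in either group, biological replicates by their labels, with no statement of separate cultures, so p-values measure the spread between these libraries.

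*Arabidopsis* takes up iron by acidifying and reducing. Proton pumps acidify the soil around the root, the reductase FRO2 turns ferric into ferrous iron at the root surface, and the transporter IRT1 carries ferrous iron into the epidermis. FIT, a basic helix-loop-helix transcription factor, activates FRO2 and IRT1 when iron is short. Roots also secrete coumarins, phenolic compounds made from feruloyl-CoA that mobilise ferric iron. F6'H1 opens the coumarin route, S8H and CYP82C4 hydroxylate its products further, PDR9 exports them, and MYB10 and MYB72 are transcription factors of the same response.

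After DMMTA the members moved in opposite directions. The reductase, the importer and their regulator fell, FRO2 17.1-fold, IRT1 12.7-fold and FIT 4.33-fold, and AHA2 and MYB10 fell less than 2-fold. F6'H1 rose 6.07-fold, and in DMMTA its transcript was the most abundant of the 10. PDR9 did not pass the test. S8H, CYP82C4 and MYB72 were below 2 TPM in every library and were not tested. Of the 7 members tested, 5 were called lower and 1 higher, where 10.5% of all 18814 loci tested were called lower and 17.4% higher (1978 and 3272 loci), 27.9% in either direction. The counts given below for other gene lists are to be read against the same shares. Limma-voom on rebuilt reads, which differs in input, scaling and variance model, called 2735 loci lower and 2835 higher. The groups did not overlap for any of the 5 members called lower; loci both called lower and without overlap made up 10.4% of those tested, nearly all of the loci called lower, so the lack of overlap adds little to the call. The median log2 fold change was -0.80 over the 7 members tested and 0.04 over all loci tested. All 7 reached 1 TPM in all 6 libraries, so none entered the test through 1 group.

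Levels are given in TPM, the deposited RPKM values rescaled to a total of 1000000 in each library. They are per length, and the values of all coding sequences of a locus were summed. FRO2, IRT1, FIT, AHA2 and MYB10 have 2 annotated coding sequences and the other members 1. Whether a read was counted for both coding sequences is not given in the sources used here. The order of the members and the ratios between members may therefore depend on the counting. Folds are ratios of group means. Each log2 fold change compares log2(TPM + 0.5) values and is followed by its SE; the added 0.5 makes changes of low genes look smaller. Limma gave the p-values, adjusted by Benjamini-Hochberg across every locus tested, and a gene was called at an adjusted p under 0.05. The files give no read counts for the rows used. The steps between low values put the depth at about 66100000 to 110000000 reads in the DMMTA libraries and 72500000 to 134000000 in the control libraries, with replicate 3 the shallowest of each group. Reads are not independent molecules.

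The promoters of the members with the largest falls and of the only member that rose are shown because these genes moved in opposite directions in the same libraries. Each is 250 bases before and 50 bases after the annotated start, read 5′ to 3′ on the gene's strand from the RefSeq annotation of TAIR10.1. The build behind the deposited values is not named, but of the 26445 loci found in that annotation, 26444 had the same number of coding sequences in the tables. FRO2 lies at chr1:208745-209044, IRT1 at chr4:10707094-10707393 and F6'H1 at chr3:4449009-4449308, all on the plus strand. Capitals mark every match to the E-box CANNTG, the core bound by basic helix-loop-helix factors, which reads the same on both strands and includes the G-box CACGTG.
FRO2: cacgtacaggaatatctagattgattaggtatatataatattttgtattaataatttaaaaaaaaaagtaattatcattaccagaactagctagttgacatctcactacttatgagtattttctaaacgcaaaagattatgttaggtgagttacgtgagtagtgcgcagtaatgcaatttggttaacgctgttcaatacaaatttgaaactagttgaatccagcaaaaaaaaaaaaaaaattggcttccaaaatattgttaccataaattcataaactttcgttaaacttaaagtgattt
IRT1: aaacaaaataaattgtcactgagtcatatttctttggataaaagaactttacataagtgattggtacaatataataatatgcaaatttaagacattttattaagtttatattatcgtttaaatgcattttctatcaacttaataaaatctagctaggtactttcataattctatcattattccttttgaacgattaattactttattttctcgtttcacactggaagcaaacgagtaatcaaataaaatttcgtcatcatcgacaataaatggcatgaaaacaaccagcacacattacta
F6'H1: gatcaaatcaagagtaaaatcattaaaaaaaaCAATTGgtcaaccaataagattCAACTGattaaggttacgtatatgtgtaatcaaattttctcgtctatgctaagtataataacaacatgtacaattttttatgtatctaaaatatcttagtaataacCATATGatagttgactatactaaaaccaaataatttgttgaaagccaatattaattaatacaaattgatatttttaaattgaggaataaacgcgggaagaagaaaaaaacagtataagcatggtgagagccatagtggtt
The F6'H1 window held 3 matches to the E-box and the FRO2 and IRT1 windows held 0. Of 27443 nuclear promoters of this length, 61.7% held at least 1 match and 8.37% held 3 or more. Of the other members, FIT, PDR9, S8H and MYB10 held 1 match each, and AHA2, CYP82C4 and MYB72 held 0. The G-box was found in no member's window and in 7.68% of all promoters. A match is a description of the letters and not a binding site, and its absence here says nothing of more distant sequence.

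FRO2, the ferric chelate reductase of the root surface, had 1.79, 1.79 and 1.35 TPM in the DMMTA libraries, against 43.4, 20.0 and 20.9 TPM in the control libraries. The DMMTA libraries lay close together and far below every control library, of which replicate 1 stood highest. The means were 1.64 ± 0.256 TPM in DMMTA and 28.1 ± 13.3 TPM in control (SD, n = 3 each), a log2 fold change of -3.65 ± 0.28 (adjusted p = 4.59e-05). By log2 fold change FRO2 ranked 9 from the bottom of all 18814 loci tested. Both of its annotated coding sequences fell by nearly the same factor, 17.2-fold and 17.1-fold. Their values kept nearly the same proportion in every library, so they are not separate observations of the fall.

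IRT1, the main importer of ferrous iron, had 9.89, 6.83 and 6.74 TPM in the DMMTA libraries, against 135, 69.9 and 91.6 TPM in the control libraries. Every DMMTA library was below every control library, with replicate 1 highest in each group. IRT1 averaged 7.82 ± 1.79 TPM in DMMTA and 99.0 ± 33.4 TPM in control, a log2 fold change of -3.55 ± 0.24 (adjusted p = 2.73e-05), and it ranked 14 from the bottom. Only 24 loci (0.128% of those tested) were called lower by a log2 fold change past -3, FRO2 and IRT1 among them. The coding sequences of IRT1 were 12.5-fold and 12.9-fold lower in DMMTA.

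FIT, the regulator of both genes (annotated FRU), had 5.06, 3.68 and 5.11 TPM in the DMMTA libraries, against 27.3, 15.3 and 17.4 TPM in the control libraries. The groups did not overlap. Its log2 fold change was -1.97 ± 0.22 (adjusted p = 3.35e-04), with a 95% confidence interval of -2.48 to -1.47 that lay apart from that of FRO2 (-4.29 to -3.02) and from that of IRT1. Within a library, IRT1 stood 1.32 to 1.95 times as high as FIT in DMMTA and 4.58 to 5.25 times as high in control. FRO2 stood 0.263 to 0.487 times as high as FIT in DMMTA and 1.20 to 1.59 times as high in control. These ratios are descriptions and were not tested.

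AHA2, a proton pump of the plasma membrane, had 189, 214 and 183 TPM in the DMMTA libraries, against 416, 393 and 233 TPM in the control libraries. Control replicate 3 lay well below the other control libraries, though still above every DMMTA library. The means of 195 ± 16.3 TPM in DMMTA and 347 ± 99.7 TPM in control gave a log2 fold change of -0.79 ± 0.20 (adjusted p = 0.0218). That call was lost without DMMTA replicate 1 (adjusted p = 0.0666), DMMTA replicate 3 (adjusted p = 0.0782), control replicate 1 (adjusted p = 0.0598) or control replicate 2 (adjusted p = 0.0586), by limma in each case.

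**Figure D1:**
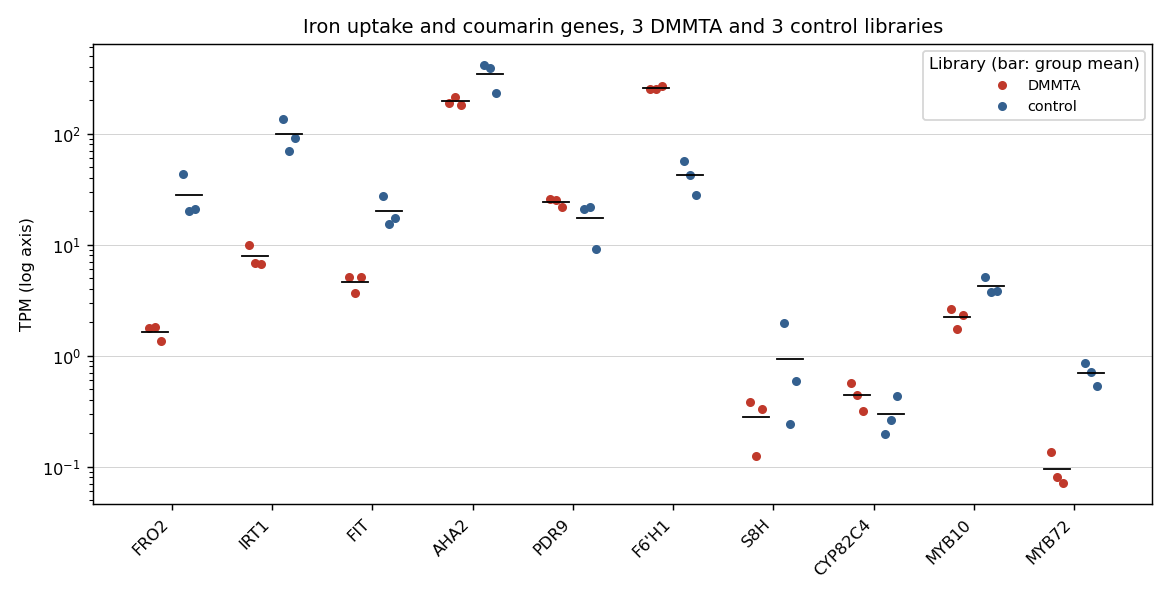
TPM (log axis) of the 10 members in each DMMTA library and each control library, with bars at the group means. FRO2, IRT1 and FIT lay lower in all 3 DMMTA libraries than in any control library, F6'H1 lay higher, and S8H and CYP82C4 overlapped near the bottom of the range.

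F6'H1, the dioxygenase that commits feruloyl-CoA to coumarins, had 251, 253 and 268 TPM in the DMMTA libraries, against 57.0, 42.1 and 28.1 TPM in the control libraries. The DMMTA libraries differed little among themselves, and each was more than 4 times as high as any control library. The means were 257 ± 9.63 TPM in DMMTA and 42.4 ± 14.5 TPM in control, a log2 fold change of 2.64 ± 0.22 (adjusted p = 6.51e-05), which ranked 128 from the top. Of all loci tested, 1.73% were called higher by a log2 fold change past 2. Within a library F6'H1 was 25.4 to 39.9 times as high as IRT1 in DMMTA and 0.307 to 0.602 times as high in control.

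S8H, which hydroxylates the coumarin scopoletin to fraxetin, had 0.380, 0.125 and 0.328 TPM in the DMMTA libraries, against 1.96, 0.244 and 0.586 TPM in the control libraries. The groups overlapped, and control replicate 1 alone held most of the control signal. These levels correspond to an estimated 17 to 45 reads in DMMTA libraries and 40 to 289 reads in control libraries. CYP82C4, which hydroxylates fraxetin further, had 0.560, 0.446 and 0.319 TPM in the DMMTA libraries, against 0.196, 0.261 and 0.428 TPM in the control libraries. Its groups overlapped too, at an estimated 37 to 97 reads in DMMTA and 42 to 63 reads in control. With no expression filter, neither gene passed the test by limma (S8H adjusted p = 0.263, CYP82C4 adjusted p = 0.261).

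PDR9 (annotated ABCG37), an ABC transporter that exports coumarins, had 25.5, 25.2 and 22.0 TPM in the DMMTA libraries, against 21.0, 21.6 and 9.14 TPM in the control libraries. The lowest DMMTA library stood just above the highest control library, and control replicate 3 stood apart below the rest. Its log2 fold change was 0.57 ± 0.29 with a 95% confidence interval of -0.09 to 1.23 (adjusted p = 0.175), and 0.18 without control replicate 3. The F6'H1 transcript was 9.84 to 12.2 times as high as that of PDR9 in DMMTA libraries and 1.95 to 3.08 times as high in control libraries.

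MYB10 had 2.62, 1.72 and 2.31 TPM in the DMMTA libraries, against 5.12, 3.74 and 3.82 TPM in the control libraries. The groups did not overlap, and the log2 fold change was -0.80 ± 0.18 (adjusted p = 0.0127). The call was lost without both replicate 3 libraries (adjusted p = 0.0679, limma), and at a minimum of 5 TPM the gene was not tested. Its relative MYB72 had 0.136, 0.0802 and 0.0709 TPM in the DMMTA libraries, against 0.861, 0.705 and 0.531 TPM in the control libraries. MYB72 thus lay below 1 TPM in all 6 libraries, at an estimated 5 to 13 reads in DMMTA and 43 to 105 reads in control, and its groups did not overlap, as was so for 46.5% of all loci tested. Its mean was 7.31-fold lower in DMMTA, and with no expression filter it passed the test (adjusted p = 0.00141, limma).

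The order of the members by level, which may depend on how coding sequences were counted, differed between the groups. In DMMTA libraries it ran F6'H1, AHA2, PDR9, IRT1, FIT, MYB10, FRO2, CYP82C4, S8H and MYB72, and the ranges of MYB10 and FRO2, of CYP82C4 and S8H, and of S8H and MYB72 overlapped. In control libraries it ran AHA2, IRT1, F6'H1, FRO2, FIT, PDR9, MYB10, S8H, MYB72 and CYP82C4, and neighbours from F6'H1 to PDR9, and S8H and MYB72, overlapped. The members varied more between control libraries than between DMMTA libraries for 8 of the 10 genes, MYB10 and MYB72 being the exceptions. The share of all loci that did so was not taken, so this count does not set the members apart. Control replicate 3 was the lowest control library for 51.3% of all loci tested and for 4 of the 10 members. For F6'H1 the coefficient of variation was 3.74% in DMMTA and 34.1% in control, and for FRO2 15.6% in DMMTA and 47.2% in control. Control replicate 1 was the highest control library for 8 of the 10 members, while it was the highest for 33.3% of all loci tested.

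The other genes of root metal uptake fell more often than they rose. Of 19 tested partners from a list of 21, 10 fell, 1 rose and 8 did not pass the test, with a median log2 fold change of -0.64. FPN2 (annotated IREG2), which moves metals into the vacuole, averaged 1.33 ± 0.251 TPM in DMMTA and 7.82 ± 0.787 TPM in control, 5.86-fold lower (adjusted p = 3.42e-05). IRT2, the neighbour and closest relative of IRT1, had 0.669, 1.25 and 0.514 TPM in DMMTA libraries, against 5.27, 3.72 and 4.07 TPM in control libraries (log2 fold change -1.92 ± 0.23, adjusted p = 4.68e-04). IRT2 lies 2505 bases from IRT1 on the same strand. CIPK11 (annotated SIP4), a kinase known to act on FIT, was the 1 that rose, to 19.4 ± 1.13 TPM in DMMTA, against 9.05 ± 0.892 TPM in control (adjusted p = 2.98e-04). Chosen after their values were seen, the nicotianamine synthase NAS1 fell 3.20-fold, the citrate exporter FRD3 2.61-fold and the metal transporter NRAMP1 2.11-fold. HMA3, a vacuolar metal pump also named after its values were seen, was called lower but reached 1 TPM in control libraries only.

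Regulators of iron status divided. Of 17 tested from a list of 21, 5 fell, 1 rose and 11 did not pass the test, with a median log2 fold change of -0.05. The count that fell was 3 without DMMTA replicate 1 or 2. It was 2 of 15 tested without any 1 control library, and 0 of 14 tested without both replicate 3 libraries. bHLH38 and bHLH100 could not be tested without a control library, nor could they or bHLH39 without both replicate 3 libraries. Where tested, bHLH38 and bHLH100 kept their call in all 10 alternatives and bHLH39 in all 13. AT4G37850 and bHLH115, the others that fell, lost their calls in 6 of 14 and 4 of 15 alternatives. The helix-loop-helix factors bHLH38, bHLH39, bHLH100 and bHLH101, which pair with FIT, were low in all libraries. bHLH38 had 0.407, 0.419 and 0.594 TPM in DMMTA libraries, against 3.87, 2.85 and 2.38 TPM in control libraries. bHLH39 averaged 1.00 ± 0.191 TPM in DMMTA and 3.22 ± 1.19 TPM in control (adjusted p = 0.00763). bHLH100 was listed at 0 in all 3 DMMTA libraries and had 2.53, 1.59 and 1.20 TPM in control libraries. bHLH38 (adjusted p = 2.55e-04) and bHLH100 (adjusted p = 2.62e-04) were called lower but reached 1 TPM in control libraries only, and bHLH101, below 0.2 TPM in all 6 libraries, was not tested. BTS, a ubiquitin ligase that holds the response back, rose to 17.5 ± 0.794 TPM in DMMTA, against 9.59 ± 1.70 TPM in control (adjusted p = 0.00275). PYE, a repressor in the stele, averaged 6.59 ± 0.924 TPM in DMMTA and 7.35 ± 1.01 TPM in control and missed the threshold (adjusted p = 0.507). AT1G47400 (adjusted p = 0.637) and AT1G47395 (adjusted p = 0.770), which the annotation leaves uncharacterized, missed it too, and AT2G30766 was too low to test.

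**Figure D2:**
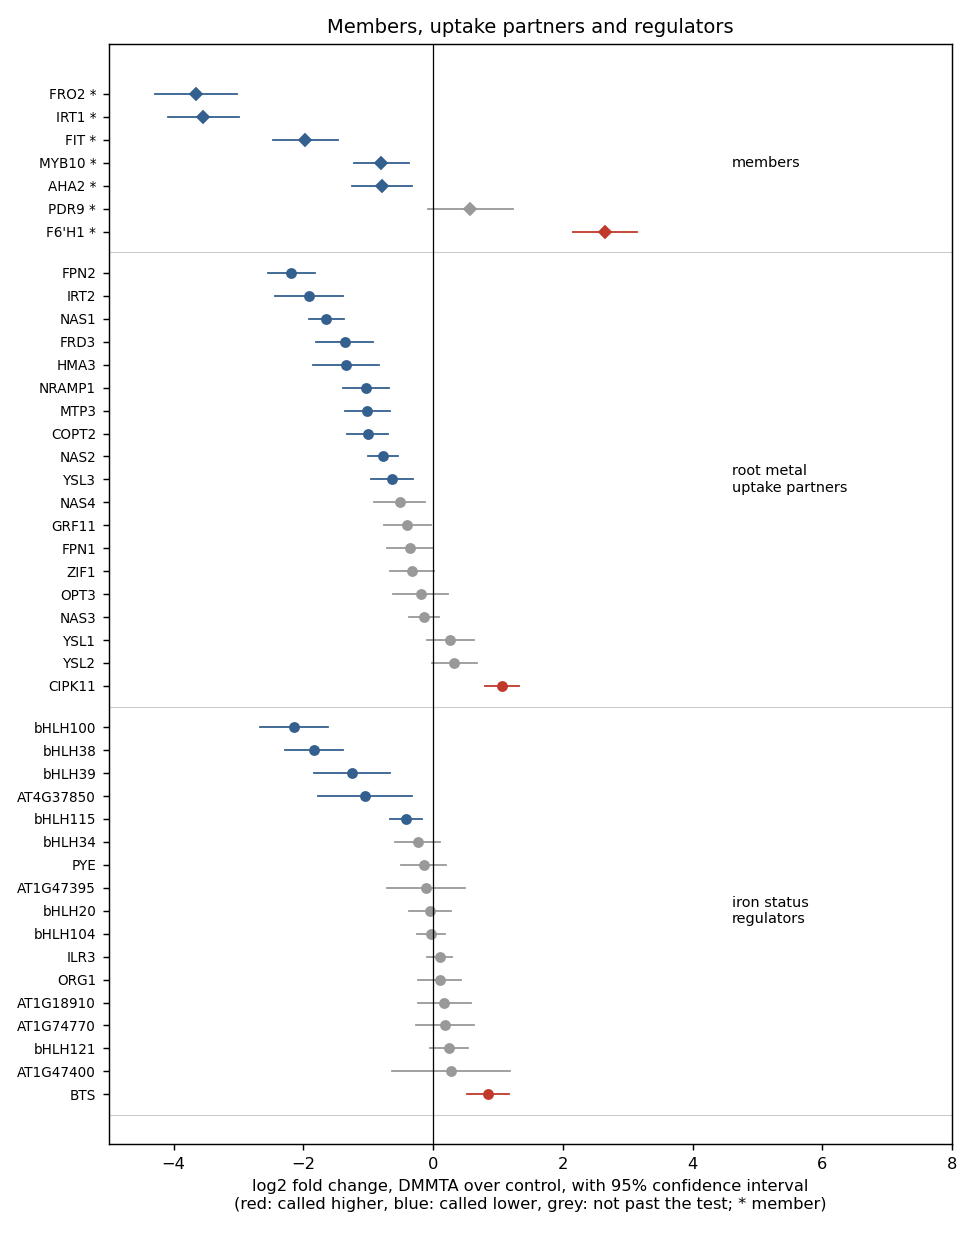
Log2 fold change of DMMTA over control with its 95% confidence interval for the 7 members tested, 19 partners in root metal uptake and 17 regulators of iron status. FRO2 and IRT1 lie farthest to the left of all genes drawn, and F6'H1 farthest to the right.

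Genes of phenylpropanoid and coumarin supply rose in part. Of 17 tested genes of phenylpropanoid and coumarin supply from a list of 18, 8 rose, 2 fell and 7 did not pass the test, with a median log2 fold change of 0.32. The CoA ligase 4CL3 rose 4.34-fold, to 16.2 ± 1.67 TPM in DMMTA, against 3.73 ± 1.11 TPM in control (adjusted p = 1.36e-04). PAL4, a phenylalanine ammonia-lyase, rose 3.41-fold, to 11.1 ± 2.64 TPM in DMMTA, against 3.26 ± 0.533 TPM in control (adjusted p = 5.10e-04). A further 3 genes called higher, named after their values were seen, stand at the entry of the pathway: PAL1 rose 2.64-fold, PAL2 2.30-fold and the cinnamate hydroxylase C4H by a log2 fold change of 1.07 ± 0.11 (adjusted p = 2.39e-04). Their relatives PAL3 and 4CL2 did not pass the test. PAL3 averaged 6.84 TPM in DMMTA and 6.82 TPM in control (adjusted p = 0.998). For 4CL2 the means were 19.2 TPM in DMMTA and 18.7 TPM in control (adjusted p = 0.835). AT1G28680, annotated as an acyl-transferase of the HXXXD type and listed with the coumarin genes, rose 1.81-fold (adjusted p = 0.00411). The calls of 4CL1 and HCT, the remaining genes called higher, at 1.39-fold and 1.44-fold, were lost without DMMTA replicate 2 or 3, without control replicate 1 or 3, without both replicate 3 libraries or with no expression filter, and that of 4CL1 also with limma-voom. CCoAOMT1, a methyltransferase that makes feruloyl-CoA, averaged 445 ± 31.3 TPM in DMMTA and 466 ± 69.5 TPM in control (adjusted p = 0.766).

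F6'H2, the closest relative of F6'H1, was near 0 in DMMTA libraries, at 0.0181, 0.143 and 0 TPM, against 0.588, 0.557 and 0.927 TPM in control libraries, and was not tested. The beta-glucosidase BGLU21 fell 3.23-fold (adjusted p = 9.31e-04), and BGLU22, the only other gene of the list called lower, fell 1.92-fold (adjusted p = 0.0234), a call lost without DMMTA replicate 1 or 3 or without both replicate 3 libraries. BGLU42, a beta-glucosidase linked to coumarin release, averaged 21.7 ± 2.62 TPM in DMMTA and 25.8 ± 3.68 TPM in control (adjusted p = 0.242). BGLU23 (annotated PYK10), the other beta-glucosidase of the list, averaged 2258 ± 315 TPM in DMMTA and 2306 ± 441 TPM in control (adjusted p = 0.926). Among the coumarin genes other than F6'H1, AT1G28680 was thus called higher and BGLU21 and BGLU22 lower. BGLU23, BGLU42 and PDR9 did not pass the test, and F6'H2, S8H and CYP82C4 were too low to enter it.

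**Figure D3:**
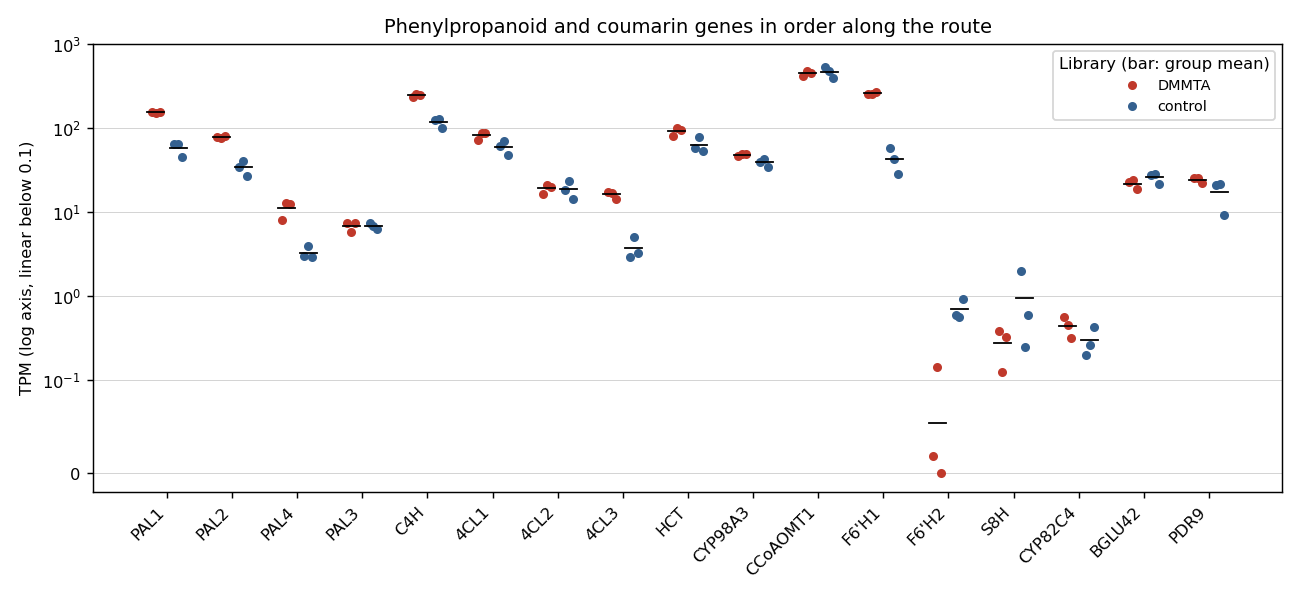
TPM in each library (log axis, linear below 0.1) of genes arranged roughly along the route from phenylalanine to secreted coumarins, with bars at the group means. F6'H1 and the early genes PAL1, PAL2, PAL4, C4H and 4CL3 stand higher in DMMTA, whereas the groups overlap for PAL3 and 4CL2. S8H and CYP82C4 stay below 2 TPM in both groups.

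Each member was set beside the relatives of its family, and differences between a member and a relative were not tested. Of 5 other FRO reductases tested 1 fell, FRO5, at 22.9 ± 5.06 TPM in DMMTA and 102 ± 28.4 TPM in control (log2 fold change -2.12 ± 0.21, adjusted p = 1.67e-04). FRO4 and FRO5 are close copies, so the division of reads between them is uncertain. FRO3, a mitochondrial reductase, averaged 14.9 ± 1.05 TPM in DMMTA and 20.1 ± 4.21 TPM in control (adjusted p = 0.0945), and it was called lower without control replicate 3 (adjusted p = 0.00732). It was also called lower by limma without both replicate 3 libraries (adjusted p = 0.0300) or with median-of-ratios scaling (adjusted p = 0.0472), and by limma-voom (adjusted p = 0.0221). FRO1, the neighbour of FRO2, stayed below 0.05 TPM in all libraries. Of 11 other ZIP transporters tested 4 fell, IRT2 and ZIP3 the most, ZIP3 2.76-fold (adjusted p = 3.12e-04). The count was 2 without DMMTA replicate 2, DMMTA replicate 3 or control replicate 1, and 7 without control replicate 3. IRT3, far more abundant than IRT1 in DMMTA, averaged 420 ± 10.3 TPM in DMMTA and 479 ± 61.5 TPM in control (adjusted p = 0.260). Without control replicate 3 it was called lower (adjusted p = 0.0310).

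Of 7 other proton pumps tested, AHA7 fell (adjusted p = 0.0477) and its call was lost with no expression filter, with FPKM in place of RPKM, and without any of 4 libraries in turn (DMMTA replicates 1 and 3, control replicates 1 and 2). AHA1, the relative most like AHA2 in level, averaged 227 ± 10.5 TPM in DMMTA and 294 ± 67.5 TPM in control (adjusted p = 0.142), and it was called lower without control replicate 3 (adjusted p = 0.00721). AHA1 was also called lower by limma without both replicate 3 libraries (adjusted p = 0.0358) and by limma-voom (adjusted p = 0.0422). Among 11 other PDR transporters tested 4 rose and 1 fell. The count that rose was 2 with no expression filter, without both replicate 3 libraries or when any 1 DMMTA library was left out. PDR12, an ABC transporter of abscisic acid that also acts in defence, had 43.4, 21.9 and 22.9 TPM in DMMTA libraries, against 15.1, 9.24 and 2.44 TPM in control libraries (adjusted p = 0.0329). The call of PDR12 was lost in the same settings. PDR8, a defence exporter (annotated PEN3), rose 1.95-fold (adjusted p = 0.0130), and PDR7 fell 2.28-fold (adjusted p = 0.00606). CYP82C2, a relative of CYP82C4 known for making a cyanogenic defence compound, had 1.78, 4.88 and 4.94 TPM in DMMTA libraries, against 0.0256, 0.0261 and 0.0317 TPM in control libraries. CYP82C2 was called higher (adjusted p = 2.91e-04) but reached 1 TPM in DMMTA libraries only, while CYP82C3 was too low to test. MYB58, a relative of MYB10 known in lignin regulation, averaged 1.06 ± 0.0958 TPM in DMMTA and 2.01 ± 0.438 TPM in control (adjusted p = 0.0205), a call lost without any 1 DMMTA library, without control replicate 1 or without both replicate 3 libraries. MYB63 averaged 2.18 ± 0.618 TPM in DMMTA and 2.22 ± 0.102 TPM in control (adjusted p = 0.863).

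**Figure D4:**
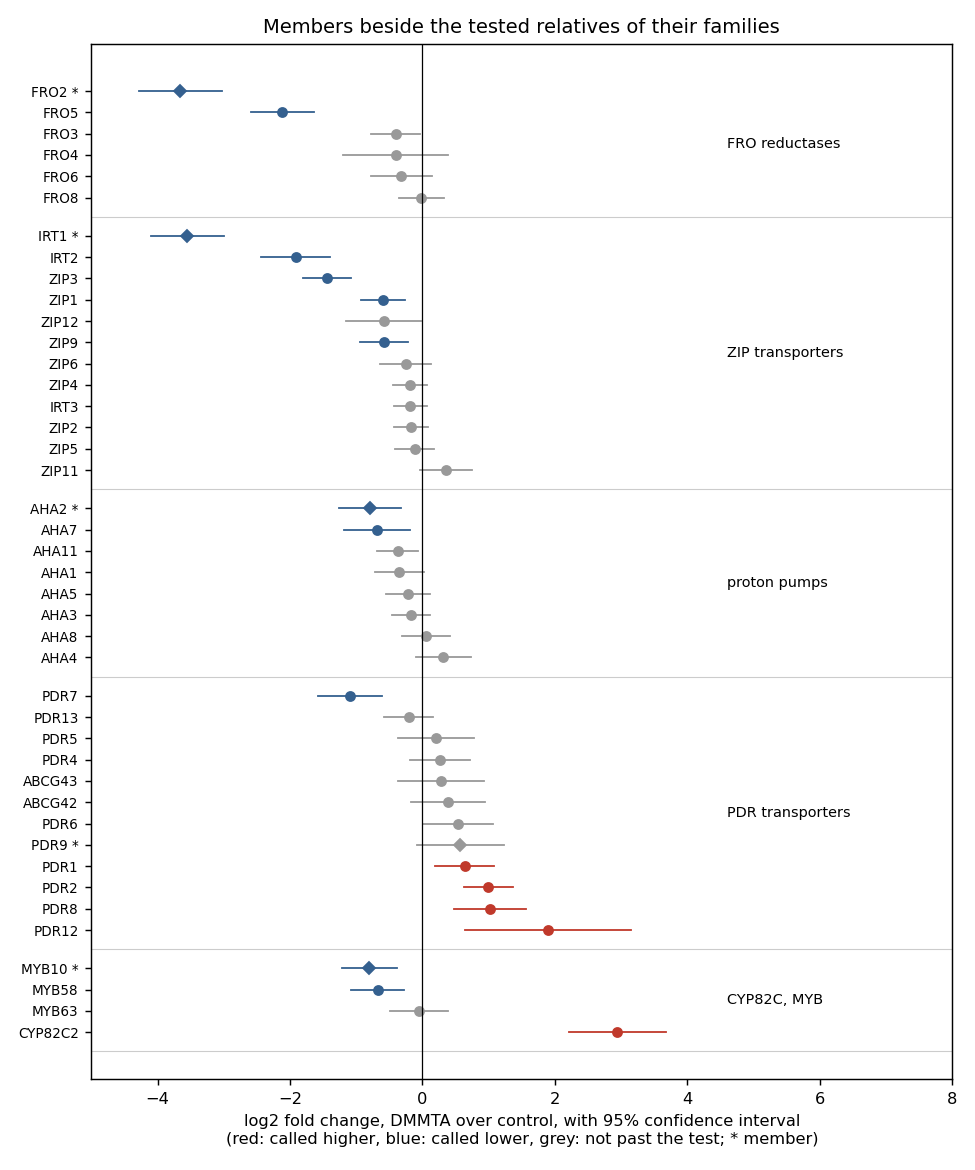
Log2 fold change of DMMTA over control with its 95% confidence interval for the tested members (asterisks) and the tested relatives in their families. FRO2 and IRT1 lie to the left of all other reductases and ZIP transporters drawn, and PDR9 lies within the spread of the PDR transporters.

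Whether reads of one gene could be counted for another was checked on the coding sequences. Of all 75-base stretches in the coding sequences of the members, CYP82C4 shared 3.13% with another locus, CYP82C3, and the other 9 members shared 0%. F6'H1 overlaps the end of AT3G13620 on the opposite strand by 67 bases and MYB10 overlaps AT3G12810 by 340 bases, with 0 coding bases in common in either case. AT3G13620 had 2.79 to 3.98 TPM in DMMTA libraries and 3.28 to 4.19 TPM in control libraries, with no call (adjusted p = 0.611). MYB72 overlaps a noncoding gene, AT1G56165, on the opposite strand. The libraries were strand-specific by the labels' protocols, and whether the counting used strand is not given in the sources used here.

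Iron storage is the other side of iron balance, and of 8 such genes tested 2 fell and 1 rose. Over all loci tested, 10.5% were called lower and 17.4% higher, so counts this small say little of the list. The vacuolar transporter gene VTL1 fell 3.04-fold (adjusted p = 3.62e-04) and the ferritin gene FER1 2.11-fold (adjusted p = 0.00421), and the ferritin gene FER2 had 11.7 ± 1.20 TPM in DMMTA and 8.28 ± 1.22 TPM in control (adjusted p = 0.0371, lost in 7 of the 15 alternative settings).

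The loci whose profile over the 6 libraries was most like that of IRT1 were sought outside the members, by the root mean square difference of their log2 levels, each relative to its own control mean. The closest was AT2G36260, annotated as an iron-sulfur cluster biosynthesis family protein, with a difference of 0.16. AT2G36260 had 6.53, 5.46 and 4.50 TPM in DMMTA libraries, against 117, 52.1 and 56.5 TPM in control libraries. Like IRT1 it was highest in replicate 1 of each group, a likeness that the selection by profile favours. Next came XTH12, a xyloglucan-modifying enzyme, with a difference of 0.34, and AT5G46890, of the lipid transfer protein superfamily, with a difference of 0.36. XTH12 averaged 0.801 ± 0.149 TPM in DMMTA and 15.1 ± 0.119 TPM in control, and both it and AT5G46890 reached 1 TPM in control libraries only.

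FRO2 and IRT1 act in the root epidermis, and whole seedlings were sampled, so markers of root and shoot cells were read in the same libraries. In bulk samples fewer cells of a type and less RNA per cell cannot be told apart. Of 8 root hair markers 7 fell, with summed levels of 29.3 to 41.5 TPM in DMMTA libraries and 108 to 134 TPM in control libraries. PRP3, a root hair wall protein, fell 7.18-fold and MRH6 6.18-fold. Of 6 tested markers of the root epidermis and cap 0 passed the test by limma and 2 had an unadjusted p under 0.05. These 2, named after their values were seen, lay in opposite directions. SMB, a root cap factor, was lower (log2 fold change -0.76 ± 0.27) and TTG2 was higher (0.39 ± 0.14). SMB was called lower by limma with the replicate block or without DMMTA replicate 1 (adjusted p = 0.0264 and 0.0260) and by limma-voom (adjusted p = 0.0460). The sums of the list, 14.8 to 21.5 TPM in DMMTA libraries and 18.5 to 19.6 TPM in control libraries, overlapped. Of 8 cortex and endodermis markers 5 fell, CASP1 3.85-fold and CASP4 4.31-fold, with sums of 45.9 to 68.4 TPM in DMMTA libraries and 119 to 130 TPM in control libraries. The count was 3 when control replicate 3 was left out, and 1 when both replicate 3 libraries were. Of 6 tested stele markers 5 fell, PHO1 3.08-fold, with sums of 37.8 to 43.9 TPM in DMMTA libraries and 91.9 to 112 TPM in control libraries. SKOR and HKT1, which are 2 of these 5, reached 1 TPM in control libraries only. The stele count was 3 without DMMTA replicate 2. It was 2 of 4 tested without control replicate 1 or 2, and 3 of 4 tested at a minimum of 5 TPM or without control replicate 3. Of 9 shoot markers LHCB2.1 rose 1.41-fold and RCA fell 1.31-fold, calls lost in 4 and 6 of the 15 alternatives, and the sums of 23096 to 26493 TPM in DMMTA libraries and 25195 to 28653 TPM in control libraries overlapped. The part of these cell markers in the changes of the members was not tested.

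**Figure D5:**
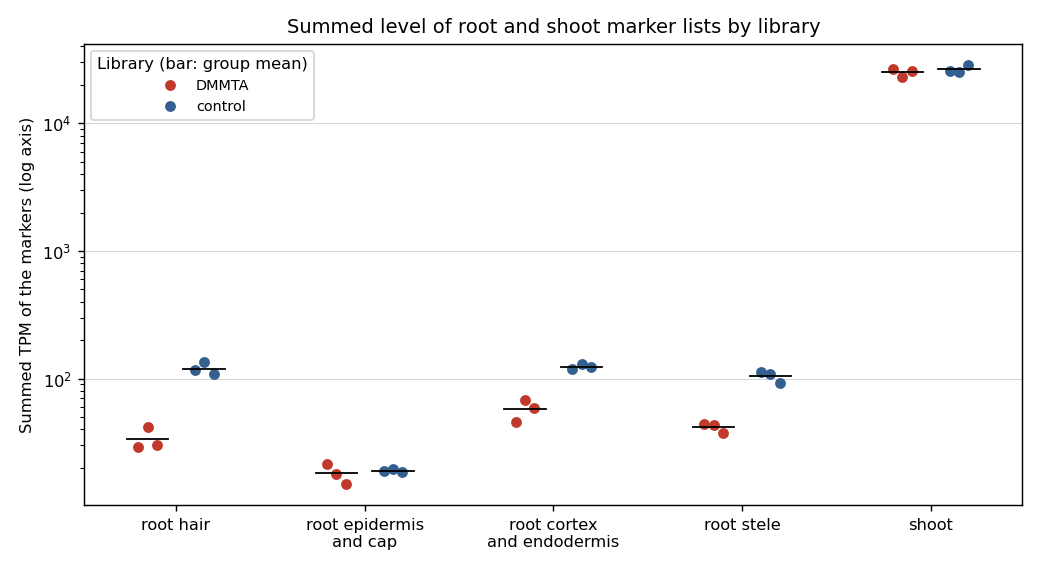
Summed TPM (log axis) of markers of root hair, root epidermis and cap, root cortex and endodermis, root stele and shoot in each DMMTA and control library, with bars at the group means. The root hair, cortex and endodermis, and stele sums lie lower in DMMTA without overlap, and the epidermis and cap and shoot sums overlap.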

How the data were processed

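The members and gene lists were chosen with earlier results of these data known. Strand-specific poly(A) libraries were sequenced, per the labels' protocols. Per the file headers, the authors deposited RPKM and FPKM for each coding sequence; FPKM served as an alternative. DESeq2 appears in the submitters' processing notes without a version, with aligner, counting and build not given in the sources used here.

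Of 48350 rows per table, 1883 (3.89%), whose description displaced the cells, were left out. RPKM was summed per locus and rescaled to 1000000 per library (TPM here). Depth came from the steps between low values, 89.4% to 93.5% of which lay within 0.2 read of a whole number. The log2(TPM + 0.5) values of loci reaching 1 TPM in 3 or more of the 6 libraries entered a limma fit with trend (limma 3.58.1 under R 4.3.3), and the fit was tested on simulated data. Named genes are the members, chosen relatives and regulators, and, per list, the 2 strongest called changes in the more frequent direction plus the 1 strongest against it, and the 3 loci most like IRT1. Gene symbols came from RefSeq. Alternatives were other filters, pseudocounts, scaling, FPKM, the replicate number as a block, limma-voom on rebuilt reads and leaving out libraries. Figures were drawn with matplotlib 3.10.9.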

Additional observations from a re-analysis of the deposited data

How the results depend on the processing

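The calls of FRO2, IRT1, FIT and F6'H1 and the lack of a call for PDR9 were the same in all 15 alternatives, with log2 fold changes of -4.08 to -2.97 for FRO2, -3.77 to -3.30 for IRT1, -2.20 to -1.70 for FIT, 2.35 to 2.88 for F6'H1 and 0.18 to 0.78 for PDR9. AHA2 kept its call in 11 of 15 (-1.05 to -0.63) and MYB10 in 13 of 14 (-1.04 to -0.56). No gene of the lists changed direction between called values. Over all loci, leaving out each library gave 2074 to 3138 called higher and 1131 to 1577 called lower, with 2074 and 1131 without DMMTA replicate 3 and 2181 higher without DMMTA replicate 2, against 3272 and 1978 with all libraries. Leaving out both replicate 3 libraries gave 1843 higher and 847 lower with 2 libraries a group. Median-of-ratios scaling gave 3111 higher and 2353 lower, with a median log2 fold change of -0.004, against 0.04. Limma-voom, which changes input, scaling and variance model together, gave 2835 and 2735, with a median of -0.05, and which of these moved the split was not tested.

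The replicate numbers were not taken as pairs: deviations from the group means correlated across same-numbered libraries at 0.243, 0.334 and 0.083, though each library correlated best with its own number. With the replicate block 3539 loci were called higher and 2242 lower, and no member's call changed. S8H, CYP82C4 and MYB72 were kept out by the expression filter, and with no filter MYB72 passed the test and S8H and CYP82C4 did not.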
